A study of Homo sapiens with 4 samples.

Results

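The Mediator complex genes of K562 cells were described by the amount of newly made RNA that each gave after 5 and 15 min of labelling. Members were the protein-coding genes whose GENCODE 29 symbol starts with MED and a number, together with CDK8, CDK19 and CCNC, which gave 33 of the 60279 gene identifiers in the human count table. Production rates were deposited for 30 of these. K562 is an established chronic myeloid leukaemia line with erythroid features, and all cells were untreated apart from the label. RNA was profiled by TT-seq (transient transcriptome sequencing): cells take up the nucleoside 4-thiouridine for some minutes, and only RNA made in that time is biotinylated and caught on beads. The 2 groups were cells labelled for 5 min and cells labelled for 15 min, with 2 libraries each, and every sample received the same mass of Drosophila S2 RNA before the enrichment. No label ties the 2 libraries of a group to separate cultures. The p-values may thus reflect no more than technical spread between libraries.

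Mediator is a large assembly that links transcription factors bound at enhancers to RNA polymerase II at promoters and helps to build the preinitiation complex. Its core has a head and a middle module, which meet the polymerase, and a tail module, which many activators bind, all held together by the scaffold subunit MED14. A separable kinase module, made of CDK8 or CDK19, cyclin C, MED12 or MED12L, and MED13 or MED13L, binds the core and can block its contact with the polymerase. The head was taken as MED6, MED8, MED11, MED17, MED18, MED20, MED22 and MED27 to MED30, the middle as MED1, MED4, MED7, MED9, MED10, MED19, MED21, MED26 and MED31, and the tail as MED15, MED16 and MED23 to MED25. Some structural work places MED27 to MED30 with the tail.

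The libraries held 4339981 to 5051370 human reads and 308978 to 897018 fly reads. Human reads per fly read rose from 5.34 ± 0.709 at the short label time to 15.6 ± 0.391 at the long one (SD, n = 2). Mediator genes took 11968 to 14927 reads per library. All 8 markers of K562 and erythroid cells were detected, at mean levels from 19.2 to 1274 counts per 1000000 human reads (CPM), and summed to 2351 and 2524 CPM after 5 min and 1786 and 1750 CPM after 15 min. Of 15 markers of T cells, B cells, monocytes, fibroblasts and epithelial cells, MS4A1 and KRT5 were at 0, EPCAM was highest at 45.4 CPM, and the 15 summed to 94.7 and 98.2 CPM after 5 min and 77.8 and 77.9 CPM after 15 min. The part of either marker sum in the results was not tested.

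Labelled RNA of every Mediator gene with reads rose between 5 and 15 min when libraries were scaled to the fly reads. MED12L, the paralog of MED12, was listed at 0 reads in all 4 libraries, so 32 of 33 members passed the filter on low counts. A count of 0 allows up to 3 reads, or 0.578 to 0.716 CPM in these libraries. All 32 rose, by a median of 3.11-fold, in a background where 98.4% of all tested genes rose with a median of 3.20-fold, so the count says nothing particular about Mediator. MED26, which joins Mediator complexes that lack the kinase module and brings in elongation factors, had the largest rise. It went from 11.5 and 12.6 to 70.6 and 68.9 reads per 100000 fly reads, a 5.80-fold rise (log2 SE 0.20, adjusted p = 2.24e-36). The smallest rise was that of MED11, a head subunit that pairs with MED22, at 2.00-fold (log2 SE 0.42, adjusted p = 0.0191). MED11 was also the lowest of the 32, with 1.67 and 2.49 reads per 100000 fly reads after 5 min and 3.45 and 4.86 after 15 min. Its call was lost with DESeq2 (adjusted p = 0.143), on dropping 5 min replicate 1 (0.125) and on dropping 15 min replicate 2 (0.258). The next smallest was that of the tail subunit gene MED16, which went from 23.0 and 28.2 to 52.4 and 52.4 reads per 100000 fly reads, a 2.05-fold rise (adjusted p = 3.23e-08). All folds on this scale rest on the same fly totals.

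The members separated in their share of the labelled RNA, for which libraries were scaled to human reads with TMM factors, so that the rise common to all genes drops out. Of 32 members, 9 gained share between 5 and 15 min (28.1%) and 8 lost it. Among all tested genes 16.8% gained and 21.3% lost share, 38.1% in all, and among protein-coding genes alone 13.7% gained and 30.5% lost, 44.2% in all. The median log2 fold change was -0.01 over the members, 0.03 over all tested genes and -0.08 over protein-coding genes. The label times did not overlap for 27 of the 32, against 67.6% of all tested genes. The calls rest on the same values, so separation of a called gene adds no support to its call. Scaling to total counts moved the median of all genes to 0.13 and the split of the members to 13 higher and 4 lower. The part of calls that were higher went from 52.9% to 76.5% in the members, and from 44.1% to 60.4% in all tested genes. Calls, and directions close to 0, thus depend on the scaling. Over all tested genes that scaling called 40.7%, and DESeq2, which called 3 members higher and 3 lower, called 19.0%. Calls for 6 members stood in each of the 8 alternatives that were run. These were the gains of MED26, MED9 and MED15 and the losses of MED14, MED16 and MED24.

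**Figure D1:**
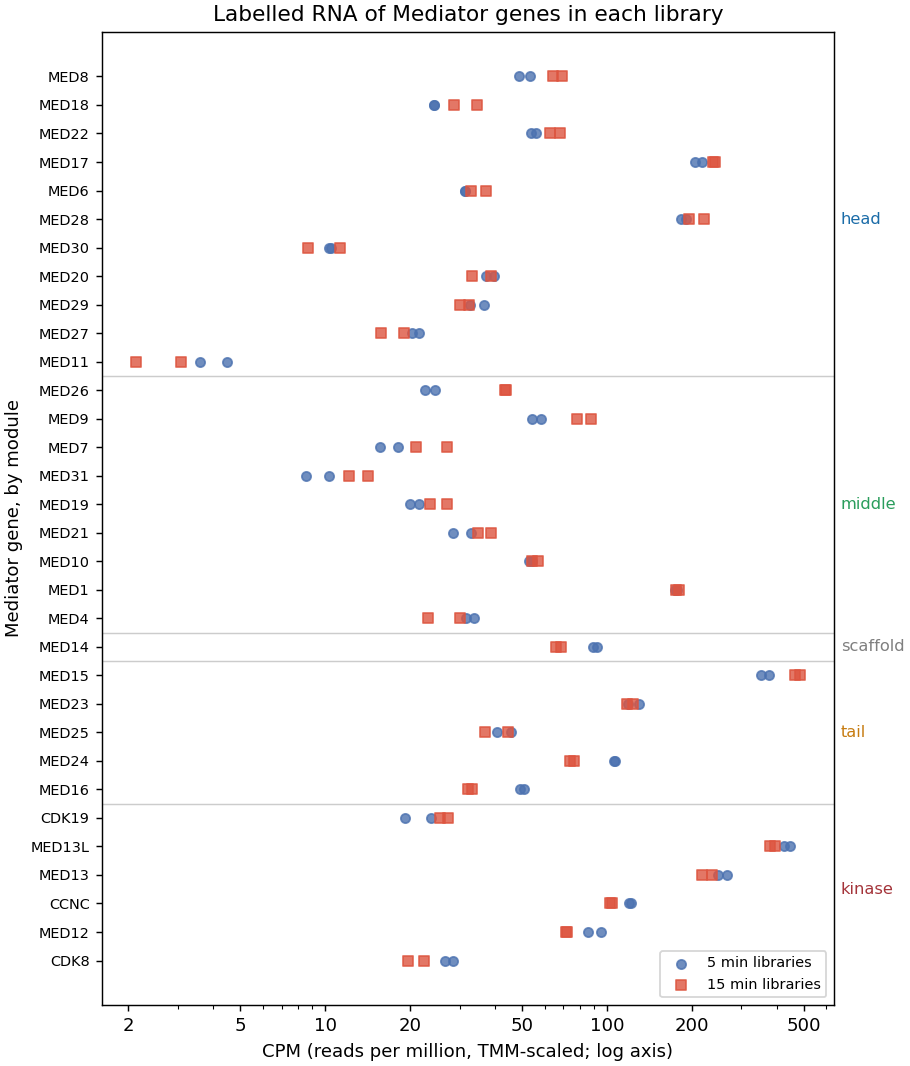
CPM of each of the 32 tested Mediator genes on a log axis, with 1 point per library (circles 5 min, squares 15 min) and genes grouped by module. The squares of MED26, MED9 and MED15 lie to the right of the circles, and those of MED14, MED16, MED24 and most kinase module genes lie to the left.

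Promoter sequences are shown for the members whose share moved in every alternative and that have an entry in the RefSeq table, and for the kinase pair CDK8 and CDK19, whose log2 fold changes had opposite signs. Each runs 5′ to 3′ on the strand of the gene, from 250 bases before to 50 after a RefSeq start (GRCh38.p14). Capitals mark matches on either strand to 6 motifs, and where matches touch or overlap the capitals run together. The ETS core was searched as CCGGAAG and the GC box as GGGCGG. The CCAAT box was searched by the letters of its name and the TATA box as TATAAA. YY1 was searched as AAGATGGC, and NRF1 by its palindromic core. The windows are chr19:16628155-16628454 (minus strand) for MED26, chr17:17476750-17477049 (plus) for MED9, chr22:20507360-20507659 (plus) for MED15, chr19:893138-893437 (minus) for MED16, chr17:40054359-40054658 (minus) for MED24, chr13:26253879-26254178 (plus) for CDK8 and chr6:110815806-110816105 (minus) for CDK19. The RefSeq starts used for MED26, MED15 and MED24 lie 858, 11697 and 6807 bases from the GENCODE gene start.
MED26: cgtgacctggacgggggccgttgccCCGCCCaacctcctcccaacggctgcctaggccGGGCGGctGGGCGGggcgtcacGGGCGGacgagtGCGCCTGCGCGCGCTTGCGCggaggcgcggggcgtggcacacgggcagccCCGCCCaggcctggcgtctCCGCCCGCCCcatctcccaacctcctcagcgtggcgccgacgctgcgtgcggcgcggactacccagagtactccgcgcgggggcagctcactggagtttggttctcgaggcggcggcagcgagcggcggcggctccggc
MED9: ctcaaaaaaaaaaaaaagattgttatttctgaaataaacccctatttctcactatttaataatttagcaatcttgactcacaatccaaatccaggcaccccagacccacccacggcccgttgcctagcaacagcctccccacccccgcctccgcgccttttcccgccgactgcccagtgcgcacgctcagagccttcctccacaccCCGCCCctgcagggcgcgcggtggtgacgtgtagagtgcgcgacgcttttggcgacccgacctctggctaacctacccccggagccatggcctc
MED15: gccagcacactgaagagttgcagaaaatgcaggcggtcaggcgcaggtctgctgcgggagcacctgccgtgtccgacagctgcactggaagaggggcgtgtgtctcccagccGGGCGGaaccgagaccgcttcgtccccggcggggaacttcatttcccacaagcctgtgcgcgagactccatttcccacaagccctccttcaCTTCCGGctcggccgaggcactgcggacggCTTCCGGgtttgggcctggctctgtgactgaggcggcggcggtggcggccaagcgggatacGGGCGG
MED16: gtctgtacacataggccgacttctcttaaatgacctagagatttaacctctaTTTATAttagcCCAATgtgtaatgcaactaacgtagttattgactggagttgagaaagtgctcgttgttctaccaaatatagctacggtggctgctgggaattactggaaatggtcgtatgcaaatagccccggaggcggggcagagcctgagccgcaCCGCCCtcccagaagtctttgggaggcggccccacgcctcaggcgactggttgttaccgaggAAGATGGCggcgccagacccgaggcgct
MED24: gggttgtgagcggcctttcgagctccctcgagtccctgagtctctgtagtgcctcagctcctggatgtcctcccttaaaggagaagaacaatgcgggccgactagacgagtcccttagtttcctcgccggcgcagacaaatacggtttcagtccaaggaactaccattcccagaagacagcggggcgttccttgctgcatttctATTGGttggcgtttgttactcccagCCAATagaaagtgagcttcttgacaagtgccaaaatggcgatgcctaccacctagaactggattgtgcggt
CDK8: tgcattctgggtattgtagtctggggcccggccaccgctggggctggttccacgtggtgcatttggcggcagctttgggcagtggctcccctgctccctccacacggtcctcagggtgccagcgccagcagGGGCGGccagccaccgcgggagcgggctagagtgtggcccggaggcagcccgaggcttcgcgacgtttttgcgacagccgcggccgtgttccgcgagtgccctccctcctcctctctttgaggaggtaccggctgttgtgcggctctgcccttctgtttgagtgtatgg
CDK19: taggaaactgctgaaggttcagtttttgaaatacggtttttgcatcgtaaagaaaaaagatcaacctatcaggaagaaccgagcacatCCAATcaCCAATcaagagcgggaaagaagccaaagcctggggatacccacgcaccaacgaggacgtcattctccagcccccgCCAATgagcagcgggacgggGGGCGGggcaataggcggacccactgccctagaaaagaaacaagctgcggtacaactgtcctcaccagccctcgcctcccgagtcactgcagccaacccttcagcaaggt
The MED26 window held 7 GC box and 2 NRF1 matches and was 77.3% G and C. MED15 had 2 ETS core matches, MED16 had a match to each of the YY1, TATA, CCAAT and GC box letters, and MED24 had 2 CCAAT matches.

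Of the 33 members, 25 had a promoter in the RefSeq table, and MED6, MED8, MED13, MED14, MED21, MED22, MED28 and MED30 had no entry. The ETS core letters were in 7 of these 25 and in 14.4% of the windows of 14895 protein-coding genes. By share call they were in 4 of 6 windows of members that gained (MED7, MED15, MED17 and MED18), 0 of 6 that lost and 3 of 12 without a call. The MED7 and MED15 windows lie 16154 and 11697 bases from the GENCODE start. In the same order, NRF1 was in 2, 0 and 3 windows, the GC box in 3, 4 and 8, the CCAAT box in 1, 4 and 4, YY1 in 1, 1 and 3, and the TATA box in 1, 1 and 0. The NRF1 letters were in 5 of the 25 (and in 8.68% of all windows), YY1 in 5 (4.0% of all windows), the GC box in 15 (59.7%), the CCAAT box in 10 (36.4%) and the TATA box in MED7 and MED16 (9.5%). MED8, MED22 and MED28 also gained share but have no window. Motif frequencies among all genes that gained or lost share were not taken, and no split by call was tested. These matches are letters in a window, and binding was not measured.

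**Figure D2:**
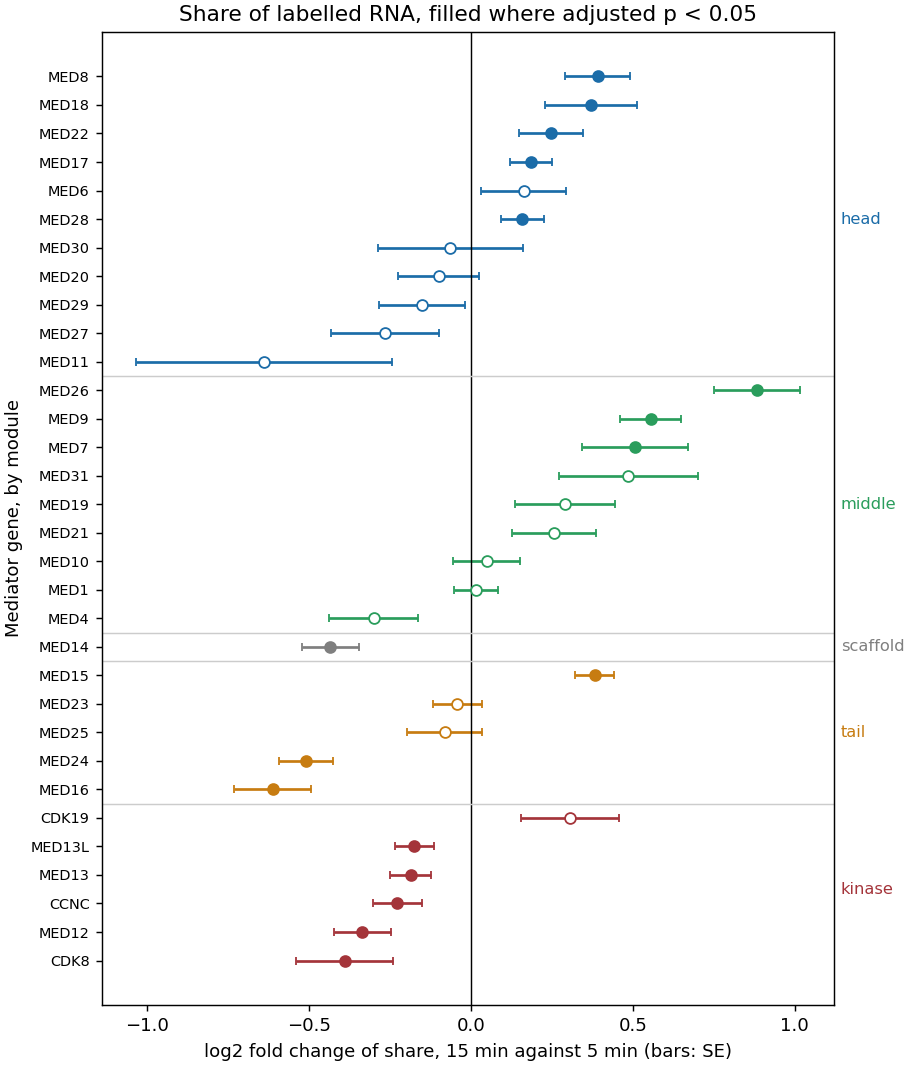
The log2 fold change of the share of labelled RNA, 15 min against 5 min, for the 32 tested Mediator genes by module, with SE as bars and filled points where the adjusted p was below 0.05 (edgeR, 2 libraries a group). Filled points of the head and middle modules lie to the right of 0, and the 5 filled points of the kinase module lie to the left.

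In the head module, 5 of 11 genes gained share and 0 lost it, with a median log2 fold change of 0.16. Gains were called for 16.8% of all tested genes and 13.7% of protein-coding genes. The 5 head genes that gained were MED8 and MED18, which belong to the movable jaw of the head, MED17, its central architectural subunit, and MED22 and MED28. Counted with edgeR at an unadjusted p under 0.05, there were also 5 higher and 0 lower, while DESeq2 called 0 in either direction (1 higher and 0 lower at an unadjusted p under 0.05) and gave MED11 no adjusted p. MED8 went from 53.5 and 48.6 CPM after 5 min to 69.4 and 64.3 CPM after 15 min. Its 15 min libraries lay above both 5 min libraries, and the log2 fold change was 0.39 ± 0.10 (SE, adjusted p = 0.000492), with 0.0619 as the adjusted p of DESeq2. MED18 went from 24.4 and 24.4 to 28.7 and 34.5 CPM (log2 fold change 0.37 ± 0.14, adjusted p = 0.0266). MED22 went from 53.7 and 56.2 to 62.7 and 68.2 CPM (0.25 ± 0.10, adjusted p = 0.0341). These gains were small. The groups did not overlap, but the calls rest on the same values, and 67.6% of all tested genes had no overlap.

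MED17 and MED28 were the 2 most abundant head genes by reads. MED17 gave 217 and 205 CPM after 5 min and 238 and 241 CPM after 15 min (log2 fold change 0.18 ± 0.06, adjusted p = 0.0143), and its start overlaps that of TAF1D on the other strand over 165 bases, and it shares 2156 exonic bases with the coding gene AP001273.2 on its own strand. MED28 gave 191 and 183 CPM and then 196 and 220 CPM (0.16 ± 0.07, adjusted p = 0.0450), and shares 3520 exonic bases with FAM184B on the other strand. On dropping 15 min replicate 2, the adjusted p was 0.138 for MED17, 0.684 for MED28, 0.326 for MED22 and 0.406 for MED18. Without replicate 2 of the 5 min group the adjusted p was 0.241, 0.326, 0.0937 and 0.114 in the same order. Without replicate 1 of the 5 min group MED28 (0.129), MED22 (0.248) and MED18 (0.123) missed the threshold, and without replicate 1 of the 15 min group MED17 (0.0875) and MED22 (0.0528) did. With no filter on low counts MED28 (0.107) and MED22 (0.068) missed the threshold. The 6 head genes without a call ranged from -0.64 ± 0.40 for MED11 to 0.16 ± 0.13 for MED6. MED20, the third gene of the jaw, had 39.6 and 37.2 CPM after 5 min and 33.2 and 38.6 CPM after 15 min, and these overlapped. MED27, MED29 and MED30 had log2 fold changes of -0.26 ± 0.17, -0.15 ± 0.13 and -0.06 ± 0.22.

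In the middle module, 3 of 9 genes gained share and 0 lost it (5 higher and 1 lower at an unadjusted p under 0.05 with edgeR, and 2 higher and 0 lower with DESeq2), with a median log2 fold change of 0.29. Of all tested genes 16.8% gained share, and of protein-coding genes 13.7%. MED26 went from 24.6 and 22.6 CPM to 43.4 and 43.7 CPM, and MED9 from 54.2 and 58.4 CPM to 78.5 and 87.5 CPM. The libraries of the label times were far apart for both, with log2 fold changes of 0.88 ± 0.13 (adjusted p = 5.47e-10) and 0.56 ± 0.09 (adjusted p = 3.55e-08). Over the alternatives they ranged from 0.81 to 0.99 for MED26 and from 0.46 to 0.66 for MED9. MED26 (chromosome 19, 16574907 to 16629062, minus strand) shares exonic bases on its own strand with the coding genes AC008764.1 (1448 bases) and AC008764.4 (705 bases), which leaves its count uncertain. MED9 (chromosome 17, 17476986 to 17493226, plus strand) overlaps no annotated gene.

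MED7, which forms the hinge of the middle module with MED21, went from 18.2 and 15.7 to 21.0 and 27.1 CPM. Its log2 fold change was 0.51 ± 0.16 (adjusted p = 0.00716). That call was lost on dropping 15 min replicate 2 (adjusted p = 0.316) or 5 min replicate 2 (0.139), and with DESeq2 (0.157). MED21 itself went from 33.0 and 28.4 to 34.7 and 38.6 CPM, and its log2 fold change of 0.26 ± 0.13 did not pass (adjusted p = 0.107). MED31, which binds MED7, had 10.3 and 8.51 CPM after 5 min and 12.1 and 14.2 CPM after 15 min (0.49 ± 0.21, adjusted p = 0.0588), and shares 1227 exonic bases with TXNDC17 on the other strand. MED1, the subunit that nuclear receptors bind, was level, at 178 and 174 CPM and then 181 and 175 CPM (0.02 ± 0.07, adjusted p = 0.876). MED10 (54.0 and 53.1 CPM, then 54.0 and 56.9 CPM, log2 fold change 0.05 ± 0.10) and MED19 (21.5 and 19.9 CPM, then 27.0 and 23.6 CPM, 0.29 ± 0.15) had no call either. MED4, at 33.7 and 31.6 CPM and then 23.1 and 30 CPM, had the only negative value of the module, -0.30 ± 0.14 (adjusted p = 0.0717), and passed on dropping 15 min replicate 2 (-0.52, adjusted p = 0.0174).

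MED14, the scaffold that joins head, middle and tail, lost share. It gave 89.5 and 92.0 CPM after 5 min and 65.9 and 68.6 CPM after 15 min. The 15 min values lay below both 5 min values, and the log2 fold change was -0.43 ± 0.09 (adjusted p = 7.10e-06). Over the alternatives it ranged from -0.48 to -0.33.

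The tail module split. MED15, which binds sterol regulatory element-binding proteins among other activators, gained share, while MED16 and MED24 lost it, and MED23 and MED25 had no call. MED15 had 376 and 353 CPM after 5 min and 486 and 464 CPM after 15 min, a log2 fold change of 0.38 ± 0.06 (adjusted p = 4.03e-09). MED16 had 49.2 and 50.8 CPM and then 32.2 and 33.3 CPM (-0.61 ± 0.12, adjusted p = 2.46e-06), and MED24 had 106 and 107 CPM and then 73.8 and 76.2 CPM (-0.51 ± 0.08, adjusted p = 1.49e-08). In each of these 3 genes the label times were separated by more than the spread of the libraries. MED23, a target of the E1A protein and of ELK1, had 119 and 130 CPM and then 124 and 118 CPM (-0.04 ± 0.08, adjusted p = 0.704). MED25, which binds the VP16 activator, had 40.8 and 45.5 CPM and then 44.5 and 37.0 CPM (-0.08 ± 0.12, adjusted p = 0.623). For MED23 and MED25 the label times overlapped, and their values turned to 0.06 and 0.02 with total-count scaling. MED24 (chromosome 17, 40019097 to 40061215, minus strand) overlaps THRA on the other strand and carries the small nucleolar RNA gene SNORD124 in an intron, whereas MED16 (chromosome 19, 867630 to 893218, minus strand) overlaps no annotated gene.

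In the kinase module, 5 of 6 tested genes lost share and 0 gained it (1 higher and 5 lower at an unadjusted p under 0.05 with edgeR), with a median log2 fold change of -0.21. Of all tested genes 21.3% lost share, and of protein-coding genes 30.5%. The 5 kinase module genes that lost it were CDK8, its cyclin CCNC, MED12, which activates the kinase, and MED13 and MED13L, which join the module to the core. MED12 went from 86.0 and 95.2 CPM to 72.3 and 71.5 CPM (log2 fold change -0.33 ± 0.09, adjusted p = 0.000607), and CCNC from 120 and 122 CPM to 105 and 103 CPM (-0.23 ± 0.08, adjusted p = 0.0112). MED13 went from 267 and 248 to 235 and 217 CPM (-0.19 ± 0.06, adjusted p = 0.0122) and MED13L from 446 and 426 to 395 and 378 CPM (-0.17 ± 0.06, adjusted p = 0.0130). In all 5 genes both 15 min libraries were lower than both 5 min libraries, by modest amounts. The calls rest on the same values, and 67.6% of all tested genes had no overlap in either direction. With total counts all 5 values stayed negative (-0.29 to -0.07), MED12 alone passed as lower (adjusted p = 0.0255) and CDK19 passed as higher. DESeq2 called 0 of the 6 (0 higher and 4 lower at an unadjusted p under 0.05), with adjusted p from 0.0503 for MED12 to 0.212 for CDK8 among the 5 and 0.394 for CDK19.

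Leaving out single libraries also ended kinase module calls. Without replicate 2 of the 5 min group CCNC (adjusted p = 0.0645), CDK8 (0.0513) and MED12 (0.0524) missed the threshold, and without replicate 1 of that group CDK8 (0.106), MED13 (0.105) and MED13L (0.0652) did. Without replicate 2 of the 15 min group MED13 (0.141) and MED13L (0.0917) missed it, and without replicate 1 of that group CDK8 (0.246) did. The median span was 151 kb in the kinase module, 15.8 kb in the head and 21.6 kb in the middle, although MED12 (23.9 kb) and CCNC (26.6 kb) are shorter than the other kinase module genes. Among protein-coding genes that span over 100 kb, 34.7% lost and 5.67% gained share, whereas 22.6% lost and 23.6% gained among those under 10 kb. The 5 tested members over 100 kb were the head gene MED27 and the kinase module genes CDK8, CDK19, MED13 and MED13L. Of these 5, 3 lost share, all of the kinase module, and 0 gained it. Of the 8 members under 10 kb, 3 gained and 0 lost share. Between these spans, 3 gained and 3 lost of 10 members from 10 to 30 kb, and 3 gained and 2 lost of 9 from 30 to 100 kb. Across the 32 members Spearman's rho of share change with span was -0.25, and across 11547 protein-coding genes it was -0.17, as a description across genes, which share libraries and are not independent replicates. The part of gene span in the kinase module result was not tested.

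The paralog pairs of the kinase module were compared per exonic length. CDK8 and CDK19 are alternative kinase subunits. CDK8 fell in share, from 28.4 and 26.6 CPM to 19.7 and 22.4 CPM (log2 fold change -0.39 ± 0.15, adjusted p = 0.0284), while CDK19 had 23.6 and 19.3 CPM and then 25.6 and 27.3 CPM (0.31 ± 0.15, adjusted p = 0.0974). The ratio of CDK19 to CDK8 in CPM per exonic kb was 0.393 and 0.341 after 5 min and 0.616 and 0.576 after 15 min. CDK8 was thus the higher of the pair per exonic length in each library, by less after 15 min. An exact two-sided permutation test of the ratio gave p = 0.333, the smallest that 6 arrangements of 4 libraries allow. In reads, CDK19 lay below CDK8 after 5 min (ratios 0.832 and 0.723) and above it after 15 min (1.30 and 1.22). MED13L over MED13 was steady, at 0.566 and 0.583 after 5 min and 0.569 and 0.590 after 15 min per exonic kb (exact two-sided permutation p = 0.667). In reads, MED13L lay above MED13 in each library (ratios 1.67 and 1.72, then 1.68 and 1.74). The annotated exons cover 37.4 kb in MED13L and 12.7 kb in MED13, so the order of this pair differs between reads and reads per length. Per kb of gene span MED13L also lay below MED13 in each library (ratios 0.632 and 0.650, then 0.635 and 0.658). MED12 carried all reads of its pair.

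Summed over modules, the head gave 655 and 625 CPM (here without TMM factors) after 5 min and 744 and 787 after 15 min. The middle gave 412 and 392 and then 487 and 512, the tail 667 and 652 and then 781 and 751, and the kinase module 937 and 892 and then 875 and 844. Head, middle and tail sums were thus 1.20, 1.24 and 1.16 times as high after 15 min, and the kinase module sum 0.940 times. The sum of all members was 1.09 times as high. With total counts and no TMM factors, the median log2 fold change of all tested genes was itself 0.134, so these ratios include a shift common to all genes. On this scale the label times did not overlap in any of the 4 modules. The exact two-sided permutation p was 0.333 for each, again the smallest possible. The denominator includes mitochondrial reads. These were 2.07% and 2.59% of human reads after 5 min, and 6.94% and 5.93% after 15 min. Over nuclear reads the kinase module ratio was 0.981, and its label times overlapped. The rise of the tail sum rests on MED15, which made up 51.5% to 63.9% of it, and without MED15 the tail went from 311 ± 8.71 to 277 ± 6.5 CPM (SD, n = 2 each), 0.892 times. These sums weight members by their reads, and MED13L alone gave 45.5% to 46.3% of the kinase module.

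**Figure D3:**
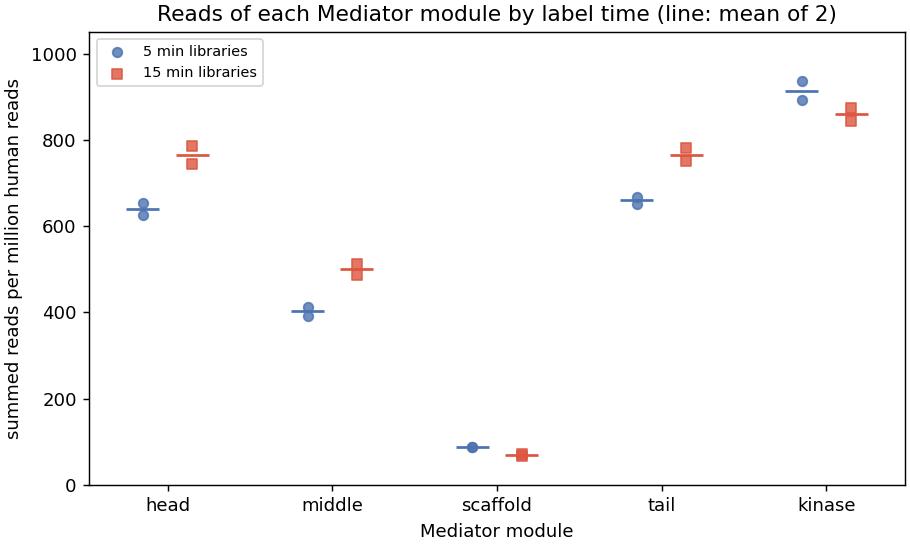
Summed reads of each Mediator module in CPM (per 1000000 human reads, no TMM), with 1 point per library (circles 5 min, squares 15 min) and the mean of 2 libraries as a line. Head, middle and tail are higher after 15 min, and the scaffold MED14 and the kinase module are lower. Mitochondrial reads are part of the denominator. Without TMM factors the median log2 fold change of all tested genes was 0.134.

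A further comparison asked whether members rose by more or less than the 3-fold ratio of the label times on the fly scale, which is the rise that RNA made at a constant rate and not lost would give. MED26, MED9, MED7, MED8 and MED15 rose by more than 3-fold, and MED16 and MED24 by less, 7 of 32 members in a background of 20.3% of all tested genes (11.3% above and 8.99% below). MED9 rose 4.60-fold (from 25.3 and 32.5 to 128 and 138 reads per 100000 fly reads, adjusted p of the departure 0.00423), and MED26 rose 5.80-fold (4.09e-05). MED15 rose 4.10-fold (0.0451), MED8 4.12-fold (0.0440) and MED7 4.47-fold (0.0363). MED24 rose 2.20-fold (0.0438) and MED16 2.05-fold (0.0210). With DESeq2 the adjusted p was 0.0737 for MED8, 0.138 for MED7, 0.0546 for MED24 and 0.0589 for MED16, and with no filter on low counts it was 0.0637 for MED15, 0.0699 for MED8, 0.0586 for MED7 and 0.0689 for MED24. TMM factors on the fly genes ended the calls of MED15 (0.0682), MED8 (0.0658) and MED7 (0.0502). MED26 and MED9 passed under these 3 alternatives. By module, the median fold was 3.50 in the head, 3.85 in the middle, 2.96 in the tail and 2.72 in the kinase module, and MED14 rose 2.32-fold. Without replicate 1 or without replicate 2 of the 15 min group 0 members passed with edgeR (3 and 1 above and 0 below at an unadjusted p under 0.05). Without replicate 1 of the 5 min group 5 were above and 6 below, and without its replicate 2 there were 9 and 2.

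The deposited production rates, 1 value per gene for untreated cells with no unit stated, spanned a 20.5-fold range over the 30 members that have one. The median was 0.0162, against 0.0114 over all 11777 deposited rates, of which the lowest was 0. Of the 30 members, 23 lay above 0.0114. MED15 had the highest rate (0.0666), followed by MED10 (0.0564), MED17 (0.0495), MED28 (0.0471), MED13L (0.0461) and CCNC (0.0449). CDK19 had the lowest (0.00324), followed by MED11 (0.00701), MED21 (0.00855) and MED16 (0.00941). CDK8 had 0.0107 against 0.0449 for its cyclin, and MED31 had 0.0266 against 0.00855 for MED21, whereas MED29 (0.0157) and MED30 (0.0155) were close. These pairs were chosen after their values were seen. Median rates were 0.0155 in the head, 0.0225 in the middle, 0.0142 in the tail and 0.0225 in the kinase module. These rates have no replicate error, and no test was made of them.

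Per exonic length, the order of levels was similar but not the same. MED15 had the highest level, 40.5 ± 6.27 CPM per exonic kb (SD over the 4 libraries, label times included), then MED10 with 29 ± 0.882, MED1 with 24.1 ± 0.393 and MED8 with 21.8 ± 3.54. MED1 lay above MED8 in both 5 min libraries (24.2 and 23.8 against 19.8 and 18.0), and the pair overlapped after 15 min (24.6 and 23.9 against 25.7 and 23.8). Below them all was MED12L at 0, and the lowest genes with reads were MED11 with 2.24 ± 0.666 and CDK19 with 3.20 ± 0.464 CPM per exonic kb, which overlapped after 5 min. MED31, with 5.36 ± 1.16, came next in the mean of 4 libraries, but MED26 was lower after 5 min (4.43 against 4.46) and MED25 (5.30) and CDK8 (5.94) were lower after 15 min, against 6.26 for MED31. The order depends on the length used, since the counted feature is not known. Per kb of gene span MED28 (10.1 CPM per kb), MED8 (10.0) and MED10 (8.11) led, MED15 had 4.58, and the lowest genes with reads were MED27 (0.0873) and CDK19 (0.116), with MED11 at 1.52. MED8 had rank 4 of 33 by level per exonic kb and rank 23 of 30 by rate, and MED31 had rank 30 by level and rank 8 by rate. Over the 30 members Spearman's rho of rate with level per exonic kb was 0.66 (Pearson's r 0.74), and over 9774 protein-coding genes 0.90 (0.96). These are descriptions across genes that share the same libraries, and no source used here names the libraries behind the rates.

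**Figure D4:**
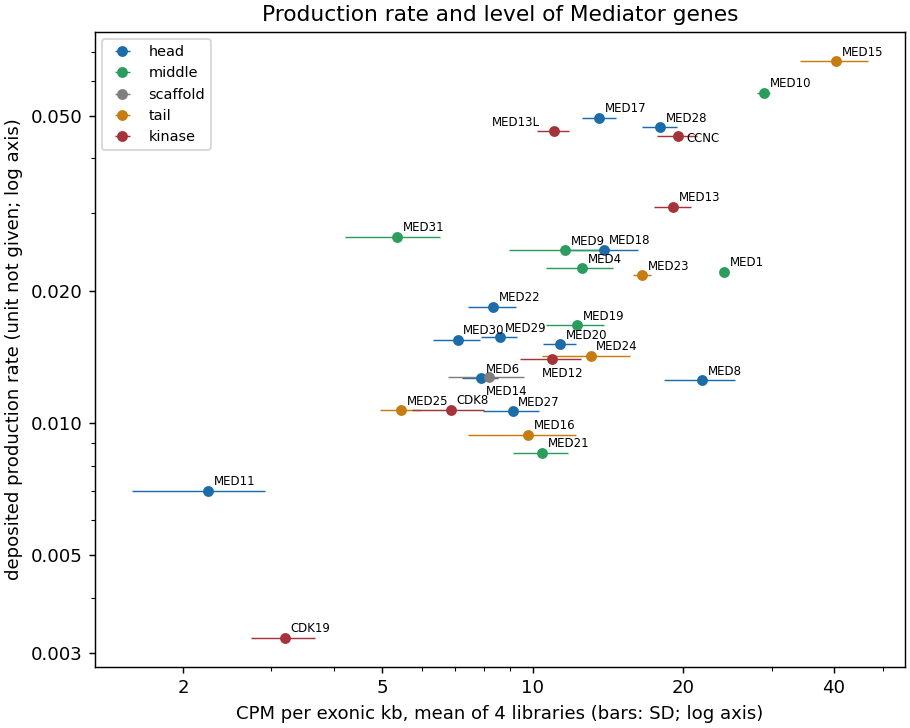
Deposited production rate (1 value per gene, no unit given) against CPM per exonic kb (mean of 4 libraries, bars SD) for the 30 Mediator genes with a rate, both on log axes and coloured by module. MED15 and MED10 lie at the top right and CDK19 at the bottom, and MED8 and MED31 lie off the common trend.

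The general transcription factors, which build the preinitiation complex with Mediator, were taken as a list of 34 genes for TFIIA, TFIIB, TFIID, TFIIE, TFIIF and TFIIH. All 34 rose on the fly scale, with a median of 2.71-fold and a range of 1.40 to 4.00. In share, 16 of 34 fell, 1 rose and 17 had no call, with a median log2 fold change of -0.21, where Mediator had 8 lower and 9 higher of 32. Among all tested genes 21.3% lost and 16.8% gained share. Among protein-coding genes alone 30.5% lost and 13.7% gained it, with a median log2 fold change of -0.08. Whether the general factor and Mediator lists differ from each other or from these backgrounds was not tested. GTF2H5, the smallest TFIIH subunit, fell from 32.7 and 32.7 CPM to 12.5 and 16.8 CPM (-1.16 ± 0.16, adjusted p = 3.07e-12), and the TFIIA gene GTF2A2 fell from 86.4 and 88.4 to 56.1 and 63.2 CPM (-0.55 ± 0.09, adjusted p = 1.56e-08). ERCC3, the TFIIH translocase, was the single gain, from 102 and 93.4 to 123 and 125 CPM (0.35 ± 0.08, adjusted p = 5.56e-05). TBP, the TATA-binding protein, had 51.3 and 48.6 CPM and then 44.3 and 42.1 CPM (-0.21 ± 0.11, adjusted p = 0.131). Deposited rates of 32 of these genes had a median of 0.0160, close to the 0.0162 of Mediator. Of these 32, 24 lay above the median of all deposited rates, against 23 of 30 Mediator genes.

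Counts of some members are uncertain because of neighbouring genes. Of the 33 members, 18 share exonic bases with another annotated gene, 7 on the same strand and 15 on the opposite strand, and 8 share 500 bases or more. The sources used here give neither the counted feature nor the strand setting.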

How the data were processed

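The 4 K562 TT-seq libraries, 2 at each label time, were analysed from the authors' deposited tables. Gene-level counts, human and fly, were deposited as whole numbers without normalization. The deposited production rate was treated as a score, since its header states no unit, method or library. The submitters' processing notes name STAR 2.7, Subread 2.0.1 with featureCounts, bcl2fastq 2.17.1.14, edgeR, hg38 and dm6, with no role or order.

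Symbols, positions and exonic lengths came from GENCODE 29 (GRCh38), and promoters from RefSeq (GRCh38.p14). All genes were fitted with edgeR 4.0.16 (filterByExpr, minimum count 10, robust quasi-likelihood test, label time as the only term), with Benjamini-Hochberg adjustment of two-sided p-values over 17322 tested genes and a threshold of 0.05. Share used TMM factors, accumulation used fly read totals as library sizes, and the departure test moved the null to a fold of 3. CPM used TMM-scaled sizes, except for marker levels and module sums, which are per 1000000 human reads. Standard errors came from the quasi-likelihood F statistic, which pools the spread over genes. The fits were tested on simulated data. Alternatives were DESeq2 1.42.0, no filter, a replicate block, other scalings and each library left out. Counts of replicates differed beyond sampling noise (ratio of chi-square to degrees of freedom 1.70 at 15 min, 1.55 at 5 min), so each was 1 sample. Counting intervals and floors cover counting error only.

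Every member was reported, and of the general transcription factors TBP and those with the smallest p in each direction (at most 2). The members and lists were chosen with earlier results of these data known.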

Additional observations from a re-analysis of the deposited data

How the results depend on the processing

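All 32 tested members rose on the fly scale under each alternative, except that MED11 missed the threshold with DESeq2 and on dropping 5 min replicate 1 or 15 min replicate 2 (31 rose). Of the share calls, 9 higher and 8 lower, DESeq2 gave 3 and 3, total-count scaling 13 and 4, no filter 7 and 8 (MED22 and MED28 lost), and leaving out single libraries 4 to 7 and 5 to 7. For members without a call, signs turned with total-count scaling in MED20 (0.005), MED23 (0.063), MED25 (0.024) and MED30 (0.041). Leaving out single libraries gave ranges across 0 for MED1 (-0.016 to 0.017), MED10 (-0.009 to 0.078), MED23 (-0.130 to 0.011), MED25 (-0.235 to 0.022) and MED30 (-0.282 to 0.109). The departure from a 3-fold rise, 5 above and 2 below, became 3 and 0 with DESeq2 (5 and 3 at an unadjusted p under 0.05), 2 and 1 with no filter, 2 and 2 with TMM factors on the fly genes, and 0 to 9 and 0 to 6 when single libraries were left out. The cause of these changes was not tested. Replicate numbers are shared by the groups, but the labels do not say that a number marks a shared culture or day, and deviations of same-numbered libraries correlated at 0.0487 across genes. The replicate block left the accumulation and share calls of the members as they were (9 higher and 8 lower) and gave departures of 2 above and 0 below with edgeR (7 and 2 at an unadjusted p under 0.05), where MED26 and MED9 passed and the adjusted p was 0.17 for MED15, 0.128 for MED8, 0.0842 for MED7, 0.141 for MED24 and 0.0714 for MED16.

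With MED27 to MED30 counted in the tail, the head and tail median levels were 11.3 and 9.80 CPM per exonic kb in place of 9.11 and 13.0, and the median rates 0.0151 and 0.0155 in place of 0.0155 and 0.0142. In share, the head then had 4 higher and 0 lower of 7 genes (median log2 fold change 0.18), and the tail 2 higher and 2 lower of 9 (-0.08). With gene span as length the median level was 2.06 in place of 10.97 CPM per kb, CDK19 over CDK8 was 0.748 in place of 0.481, and MED13L over MED13 was 0.644 in place of 0.577. Over nuclear reads the 15 min to 5 min ratio of module sums was 1.25 for the head, 1.30 for the middle, 1.21 for the tail, 0.830 for MED14, 0.981 for the kinase module and 1.14 for all members, whose ratio over all human reads was 1.09. Depth limits MED11 most, with 11 to 20 reads per library.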
